A study of Mus musculus with 6 samples.

Results

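The Fam83 genes are a family of 8 genes, Fam83a to Fam83h, that share a domain near the start of their proteins through which they bind casein kinase 1. They were taken here by gene symbol from arrays of embryonic mouse bladder, and all 8 were measured among 19938 genes with a single annotated symbol. Where a gene has several array features the rule takes the one with the highest mean over all 6 arrays, but every Fam83 gene had 1 feature, so no member was chosen by its level. The family itself was selected on earlier results of the comparison of genotypes in these arrays, and its differences and counts are therefore descriptions, given beside the same counts over all genes. The adjusted p-values come from a fit over all genes and are no independent support for the family.

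RNA came from whole bladders at E14.5 (the embryonic day), with 3 samples of genotype Klf5 Δ/Δ, in which the gene for the zinc-finger transcription factor Klf5 is deleted on both alleles, and 3 controls of genotype Klf5+/+ that carried ShhGfpCre, a Cre recombinase and GFP allele at the Shh locus. Each sample was a pool of 2 bladders on 1 Affymetrix Mouse Gene ST array, and values are log2 expression as deposited. The labels leave unsaid whether the Klf5 Δ/Δ embryos also carried ShhGfpCre; where that allele drives the deletion, cells that do not express Shh, such as bladder muscle and connective tissue, keep Klf5. Litters are not named either, and the spread behind each p-value is that from pool to pool. The labels name the tissue as urothelium and as whole bladder. Markers of both were read on all arrays, without a call above background. The mean of 8 urothelial genes was 8.28 to 8.41 in Klf5-deleted and 10.2 to 10.7 in control samples. In Klf5-deleted samples these genes ran from a mean of 6.47 for Krt20 to 11.32 for Upk3b, which is also listed as mesothelial. The mean of 10 smooth muscle genes was 11.8 to 12.0 in Klf5-deleted and 12.0 to 12.3 in control samples.

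FAM83 proteins have no known enzyme activity of their own. They hold casein kinase 1 isoforms at particular places in the cell, such as keratin filaments or the mitotic spindle, and so help decide which substrates the kinase meets. FAM83H organises keratin filaments and is mutated in hereditary enamel defects, FAM83G acts in BMP and Wnt signalling and its loss gives mice a woolly coat, FAM83D brings the kinase to the spindle, and FAM83A and FAM83B act in EGF receptor and RAF signalling in epithelial tumours.

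Fam83b, Fam83h and Fam83f fell in the Klf5-deleted bladders, by 2.61-fold, 2.26-fold and 1.64-fold, and no Fam83 gene rose. The other 5 members did not pass an adjusted p of 0.05 by limma, the model used to compare genotypes gene by gene, with Benjamini-Hochberg adjustment over all 19938 genes. Thus 3 of 8 members fell, where 1.59% of all genes fell, 0.386% rose and 1.98% passed in either direction; over all genes 318 fell and 77 rose, or 269 and 121 when each array was centred on its housekeeping genes. All 8 members had a difference below 0, as did 53.5% of all genes; with that centring 7 of 8 did. The median difference of the family was -0.20 (log2), against -0.01 for all genes. At an unadjusted p under 0.05, 5 of 8 members were lower and none higher, where 8.08% of all genes were lower and 6.34% higher; unadjusted counts of the lists below are to be read against these shares. In RNA of whole bladders, fewer epithelial cells and less RNA per epithelial cell cannot be told apart.

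**Figure D1:**
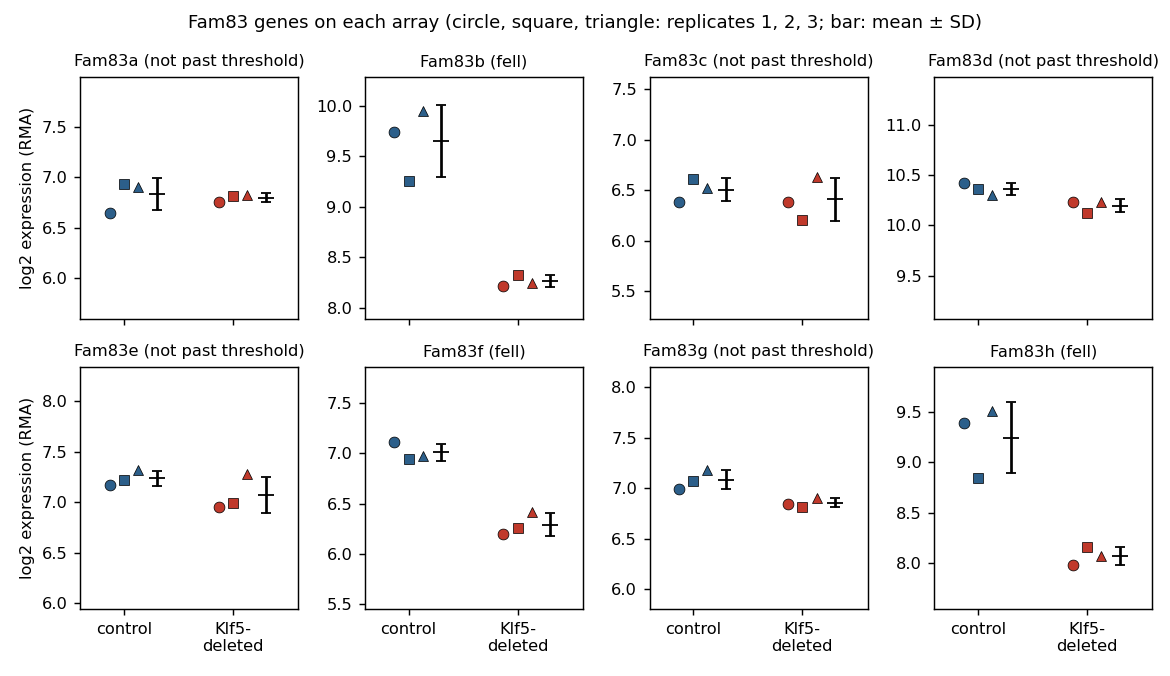
Log2 expression of each Fam83 gene (vertical axis, a span of 2.4 log2 units in every panel) on the 3 control arrays (blue) and the 3 Klf5-deleted arrays (red), with mean ± SD in black. The points of Fam83b, Fam83f and Fam83h lie well apart between genotypes, while those of Fam83a, Fam83c and Fam83e overlap.

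Fam83b, whose protein was found as a transforming factor of mammary epithelial cells upstream of RAF, had the largest difference in the family. It read 8.22, 8.33 and 8.24 in Klf5-deleted samples and 9.74, 9.25 and 9.95 in controls. The groups did not overlap, the Klf5-deleted arrays lay close together, and control 2 was the lowest of the controls. Means were 8.26 ± 0.06 (SD, n = 3) and 9.65 ± 0.36 (SD, n = 3), a difference of -1.39 (SE 0.16, 95% confidence interval -1.77 to -1.001, adjusted p = 0.00841 by limma). The difference stood at the 0.366 percentile of all genes, so that few genes were lowered more. Without Klf5-deleted 1 the difference was -1.36 and the adjusted p was 0.0507 by limma, so the call did not hold there; without any other single array it held.

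Fam83h, which codes for the keratin-organising member, showed the same order of arrays in the controls. It read 7.98, 8.17 and 8.07 on the Klf5-deleted arrays and 9.39, 8.84 and 9.51 on the control arrays. The groups were again apart, with control 2 the nearest to the Klf5-deleted arrays. The means of 8.07 ± 0.09 (SD, n = 3) and 9.25 ± 0.35 (SD, n = 3) differed by -1.17 (SE 0.17, 95% confidence interval -1.56 to -0.79, adjusted p = 0.0166 by limma). This call depended on single arrays: the adjusted p by limma was 0.0891 when Klf5-deleted 1 was left out, 0.0665 without Klf5-deleted 2, 0.0555 for Klf5-deleted 3 and 0.0777 for control 1, with differences of -1.22 to -1.10. It was 0.0473 without control 3 and 0.000573 without control 2, where the difference was -1.38.

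Fam83f, whose protein binds casein kinase 1 alpha, fell less than Fam83b and Fam83h in log2 terms but with less spread. It read 6.20, 6.26 and 6.41 in Klf5-deleted samples against 7.11, 6.94 and 6.97 in controls. Every control array was above every Klf5-deleted array, and control 2 did not stand apart here. Means were 6.29 ± 0.11 (SD, n = 3) and 7.01 ± 0.09 (SD, n = 3), with a difference of -0.72 (SE 0.08, 95% confidence interval -0.91 to -0.52, adjusted p = 0.00751 by limma). The call held without any single array, with an adjusted p by limma of 0.0121 to 0.0435. Fam83f was a dim feature, below the median level of all features, where RMA is known to compress differences.

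**Figure D2:**
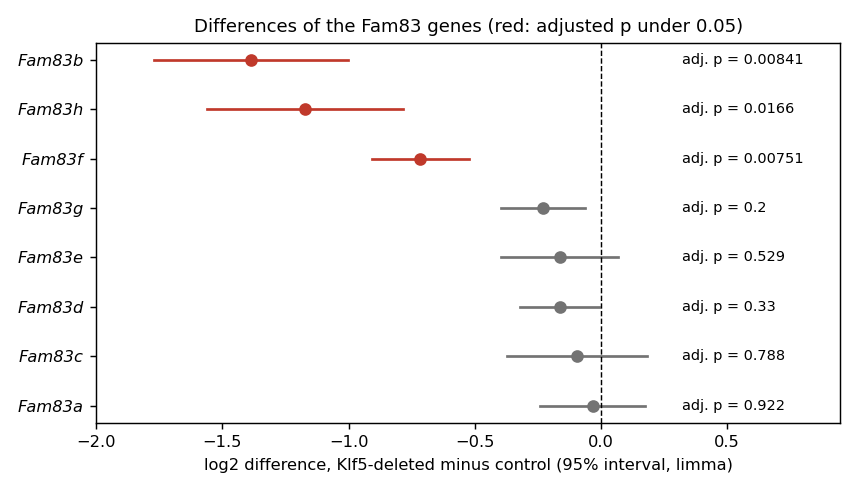
Log2 difference between Klf5-deleted and control samples for each Fam83 gene (horizontal axis) with its 95% confidence interval and its adjusted p from limma over 19938 genes. Fam83b, Fam83h and Fam83f (red) lie between -1.39 and -0.72, and the other 5 genes lie between -0.23 and -0.03.

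Fam83g, the member tied to BMP and Wnt signalling, and Fam83d, the spindle member, had small differences in the same direction without overlap between groups. Fam83g read 6.85, 6.82 and 6.91 on the Klf5-deleted arrays and 6.999, 7.07 and 7.19 on the controls. Its difference was -0.23 (SE 0.07, adjusted p = 0.2 by limma), and its 95% confidence interval ran from -0.39 to -0.06. Fam83d read 10.23, 10.12 and 10.24 against 10.42, 10.36 and 10.30, a difference of -0.16 (SE 0.07, adjusted p = 0.33 by limma). In both genes the gap between the nearest arrays of the 2 genotypes was small beside the falls of Fam83b and Fam83h. With these genes 5 of 8 members had groups that did not overlap, all lower in Klf5-deleted samples; 11.8% of all genes did so in that direction and 20.5% in either.

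Fam83a, Fam83c and Fam83e had overlapping groups. Fam83a, the other member known from EGF receptor signalling, read 6.75, 6.82 and 6.83 on the Klf5-deleted and 6.65, 6.94 and 6.91 on the control arrays. Control 1 was the lowest of all 6 arrays, and the difference of -0.03 (95% confidence interval -0.24 to 0.18, adjusted p = 0.922 by limma) was 0.02 with arrays centred on housekeeping genes. The interval does not reach the fall of Fam83b, though the feature was dim. Fam83c, a little-studied member, read 6.39, 6.21 and 6.64 against 6.38, 6.61 and 6.52, with a difference of -0.09 (95% confidence interval -0.37 to 0.18). Fam83e, also little studied, read 6.96, 6.99 and 7.28 against 7.17, 7.22 and 7.32, with a difference of -0.16 (95% confidence interval -0.39 to 0.07). In Fam83e the overlap came from Klf5-deleted 3 alone, which lay above controls 1 and 2. The adjusted p by limma was 0.788 for Fam83c and 0.529 for Fam83e. Whether the differences of 2 members differ from each other was not tested.

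Promoter sequences in the RefSeq table of GRCm38.p6 were matched for 4 members, Fam83b, Fam83d, Fam83e and Fam83g, and the 250 bases before the start are shown for Fam83b, which fell, and for Fam83d, which did not pass. Klf5 belongs to a family of factors that bind GC boxes and CACC boxes. Capitals mark matches on either strand to GGGCGG, the GC box, or to CACCC, the core of a CACC box. Both sequences read 5′ to 3′ on the gene's strand. Fam83b lies on the minus strand at chr9:76567116-76567365 and Fam83d on the plus strand at chr2:158767849-158768098.
Fam83b: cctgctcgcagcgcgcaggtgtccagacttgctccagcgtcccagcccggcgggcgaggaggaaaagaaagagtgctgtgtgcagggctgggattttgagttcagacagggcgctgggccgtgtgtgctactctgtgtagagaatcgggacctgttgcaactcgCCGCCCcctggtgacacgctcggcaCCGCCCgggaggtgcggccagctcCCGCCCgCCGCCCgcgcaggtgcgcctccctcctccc
Fam83d: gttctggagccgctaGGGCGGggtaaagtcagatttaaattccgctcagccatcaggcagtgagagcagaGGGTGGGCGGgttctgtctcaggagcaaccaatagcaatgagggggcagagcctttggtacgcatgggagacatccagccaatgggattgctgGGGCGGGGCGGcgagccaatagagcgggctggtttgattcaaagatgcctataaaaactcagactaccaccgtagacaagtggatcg
The Fam83b sequence held 4 GC boxes, all on the strand opposite to the gene, whose first bases lay at positions -86, -61, -37 and -30 from the start, and no CACCC. The Fam83d sequence also held 4 GC boxes, and 1 CACCC on the opposite strand; 2 of its GC boxes share a base, and the CACCC shares a base with another. Fam83g held 1 GC box and no CACCC, and Fam83e held 2 CACCC and no GC box. Among 32851 promoters of the same length, 32.7% held a GC box and 52% held CACCC. The number of GC boxes in Fam83b, which fell, was thus equal to that in Fam83d and above that in Fam83g and Fam83e, which did not pass. How many of all promoters held 4 GC boxes was not counted. The share of G and C bases was 68.8% in Fam83b, 55.6% in Fam83d, 67.2% in Fam83g and 61.2% in Fam83e. Its median over all promoters was 52.4%, and the counts were not adjusted for it. Fam83f and Fam83h, which also fell, had no matched promoter, so fallen members were not compared with the others. A match describes letters only, and binding was not measured.

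The Klf5 gene itself was lower in the Klf5-deleted samples, at 10.12, 10.34 and 10.23 against 10.84, 10.63 and 10.97, with a difference of -0.59 (SE 0.10, adjusted p = 0.0381 by limma). That call held without control 2 and was lost without any other single array. Which part of Klf5 the feature covers was not analysed here. Control 2 also carried placental and decidual transcripts: the mean of 11 such genes was 10.23 on it, 9.13 on Klf5-deleted 2 and 5.81 to 7.74 on the other 4 arrays. Their part in the lower Fam83b and Fam83h readings of control 2 was not tested; without control 2 the differences were larger, at -1.58 for Fam83b and -1.38 for Fam83h. The mean of 11 skeletal muscle genes was 9.35 to 10.29 in Klf5-deleted and 8.74 to 9.67 in control samples, with none past the threshold by limma and 6 higher and none lower at an unadjusted p under 0.05. Smooth muscle genes were below 0 in 10 of 10 cases, with a median difference of -0.30 and array means of 11.81 to 12.01 against 12.04 to 12.33. Of these, Synpo2 fell by 0.38, a call lost whichever array was left out, and at an unadjusted p under 0.05 7 were lower and none higher. The part of these muscle genes in the results was not tested.

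General epithelial genes fell with the 3 Fam83 genes. Of 20 listed genes 16 fell and none rose, with a median difference of -1.203, and at an unadjusted p under 0.05 19 were lower. Prom2, a membrane protein of apical protrusions, fell by 1.95, Spint1, an inhibitor of serine proteases, fell by 1.88 and the ETS factor gene Ehf fell by 1.87. The E-cadherin gene Cdh1 fell by 1.497. The adjusted p by limma was 0.0645 for Ehf without Klf5-deleted 1, 0.0597 for Ehf without Klf5-deleted 2 and 0.053 for Cdh1 without control 1, so these calls did not hold there. Epcam, an epithelial adhesion gene, differed by -0.39 (adjusted p = 0.521 by limma). The count of falls was 16 without control 2 and 11 without control 1. The mean of the 20 genes was 8.67, 8.94 and 8.88 on the Klf5-deleted and 10.12, 9.81 and 10.19 on the control arrays, so control 2 was the lowest control here too.

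Set against that epithelial mean on the same array, Fam83b and Fam83h no longer separated the genotypes. The distance of Fam83b from the mean was -0.57 ± 0.10 (SD, n = 3) log2 units in Klf5-deleted samples and -0.39 ± 0.16 (SD, n = 3) in controls, with overlapping arrays. That overlap came from control 2 alone, at -0.56. Controls 1 and 3, at -0.38 and -0.24, lay above all Klf5-deleted arrays, at -0.64 to -0.45. For Fam83h the distance was -0.76 ± 0.06 and -0.79 ± 0.15 (SD, n = 3 each), also with overlap. There control 1, at -0.74, lay among the Klf5-deleted arrays as well. Fam83f went the other way: its distance from the mean was -2.54 ± 0.12 in Klf5-deleted samples and -3.03 ± 0.18 in controls (SD, n = 3 each), without overlap. Its fall was thus smaller than that of the epithelial mean, by 0.49. Fam83f was a dim feature, where RMA is known to compress differences, and the part of that in this gap was not tested. The 5 members that did not pass were higher relative to the epithelial mean by 0.98 to 1.18, without overlap. The epithelial mean itself was lower in Klf5-deleted samples without overlap, so an unchanged gene would be higher relative to it as well. The separation of these 5 members, and their p of 0.1 below, thus follow from the reference and are no evidence about them. By two-sided exact permutation tests over the 6 arrays, p was 0.2 for Fam83b, 0.9 for Fam83h and 0.1 for each of the other 6 members; 0.1 is the smallest p that 3 arrays against 3 can give, so none could pass 0.05. limma was not used here, because all genes share the spread of the list mean on an array. These distances only compare changes between genotypes on an array, and they do not rank the genes by level.

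**Figure D3:**
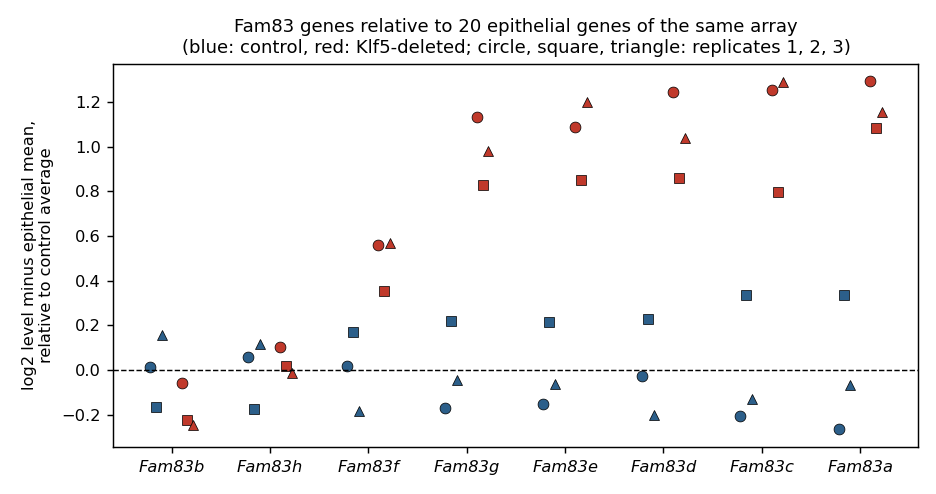
Log2 level of each Fam83 gene minus the mean of 20 epithelial genes on the same array (vertical axis), shifted so that the control average of each gene is 0. Klf5-deleted arrays (red) overlap controls (blue) for Fam83b and Fam83h and lie above them for the other 6 genes. For Fam83b the overlap comes from control 2 alone.

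Keratins, the filaments on which FAM83H acts, were read from 2 lists. Of 6 simple epithelial keratin genes 4 fell and none rose, with a median difference of -1.49. Krt8, Krt18 and Krt19 are also in the list of general epithelial genes, and Krt19 in the mesothelial list, so these lists are not independent. Krt8 and Krt18, the partner keratins of simple epithelia, differed by -1.77 and -1.52, and Krt7 and Krt19 by -1.51 and -1.46; these 4 held without any single array. Krt8 read 10.51, 10.72 and 10.69 on the Klf5-deleted and 12.51, 12.21 and 12.50 on the control arrays, with control 2 the lowest control as for Fam83h. Relative to the mean of the 6 keratins, Fam83h differed between genotypes by -0.06 and Fam83b by -0.27, with overlapping arrays in both cases. Both overlaps came from control 2 alone, at -0.97 for Fam83h and -0.56 for Fam83b. Controls 1 and 3 lay above every Klf5-deleted array in both genes. Krt20 and Krt23, which did not pass, differed by -0.21 each.

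Of 9 basal and stratified keratin genes 2 fell and none rose; Krt4 differed by -1.77 and Krt15 by -1.43. Krt4 did not pass without Klf5-deleted 1, Klf5-deleted 2 or control 1. At an unadjusted p under 0.05, 3 were lower and none higher, and the list median was -0.14. Krt5 and Krt14, the keratin pair of basal cells, differed by -0.10 and -0.14; this description was added after their values were seen. Krt5 was at 11.37 in control 2 and between 9.85 and 10.49 in all other samples, so the spread among controls exceeded the difference.

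Genes of desmosomal plaques and linkers, which tie keratin filaments to junctions, had differences below 0 in all 12 measured cases, and 3 fell; Dst, the gene of dystonin, at -0.02, turned above 0 with arrays centred on housekeeping genes. Ppl and Evpl, which code for the plakins periplakin and envoplakin, differed by -1.17 and -0.54 and held without any single array. Jup, which codes for plakoglobin, fell by 0.43, a call lost whichever array was left out. Dsp, the gene of desmoplakin, differed by -0.65 (adjusted p = 0.117 by limma). The list median was -0.33, and none of the 12 rose; at an unadjusted p under 0.05, 7 were lower and none higher.

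The casein kinase 1 genes themselves did not follow Fam83b, Fam83h and Fam83f. None of 6 passed the threshold by limma; at an unadjusted p under 0.05, 2 were higher and none lower, and the median difference was 0.12. Csnk1a1, which codes for the isoform that all family members bind, read 12.24, 12.28 and 12.17 on the Klf5-deleted and 12.13, 12.07 and 12.09 on the control arrays. Its groups did not overlap, and the difference was 0.13 (SE 0.06, adjusted p = 0.403 by limma). Csnk1e, which codes for the epsilon isoform, differed by 0.18 (adjusted p = 0.202 by limma), and Csnk1g3 by 0.19 (adjusted p = 0.221 by limma). Their groups did not overlap either. With Csnk1a1, 3 of 6 genes had groups apart, all higher in Klf5-deleted samples. Among all genes 8.67% did so in that direction and 20.5% in either. Csnk1d, the delta isoform gene, differed by -0.01. Thus in whole bladder RNA 3 of the genes for the anchors fell, and no fall was detected in the genes for the kinase. Over all genes 1.59% fell, so no fall among 6 genes is near that share. A change of the kinase genes confined to epithelial cells was not measured apart from the other tissue.

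**Figure D4:**
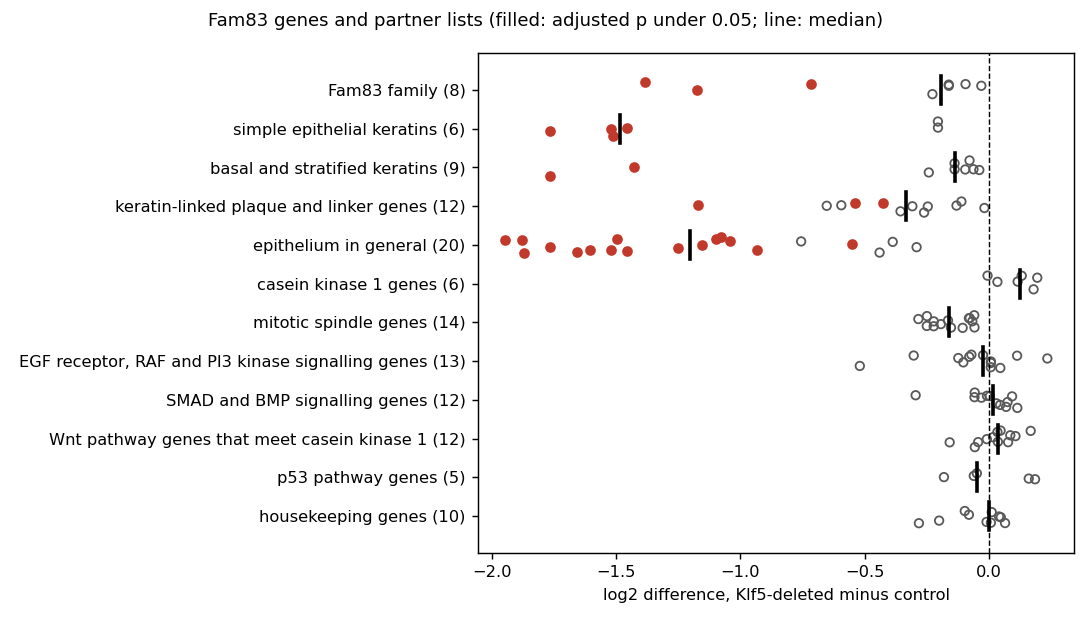
Log2 difference between Klf5-deleted and control samples (horizontal axis) for each measured gene of the Fam83 family and of 11 lists, with the number of genes in brackets; filled points passed an adjusted p of 0.05 by limma and the black line is the median. Simple keratins (median -1.49) and general epithelial genes (median -1.203) lie to the left with Fam83b and Fam83h, and casein kinase 1 genes (median 0.12) lie near 0. Krt8, Krt18 and Krt19 are in both the simple keratin and the general epithelial list.

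Fam83d was read beside the genes of the mitotic spindle, where its protein works. None of 14 measured spindle genes passed by limma, and all 14 had a difference below 0. At an unadjusted p under 0.05, 6 of 14 were lower and none higher, against 8.08% and 6.34% of all genes. The median difference was -0.16, and Fam83d itself differed by -0.16. Hmmr, which codes for the spindle protein that binds FAM83D, read 9.67, 9.66 and 9.50 on the Klf5-deleted and 9.81, 9.76 and 9.72 on the control arrays. Its groups did not overlap, and its difference was -0.15 (SE 0.07, adjusted p = 0.387 by limma). The mitotic kinase genes Plk1 and Aurkb differed by -0.28 and -0.25, with adjusted p of 0.0959 and 0.104 by limma. Relative to the mean of the 14 spindle genes, Fam83d differed between genotypes by -0.01, with overlapping arrays. Fam83e, Fam83g, Fam83c and Fam83a differed by -0.01, -0.07, 0.06 and 0.13, also with overlap. Nearness to this list was thus shared by all members that did not pass and was not particular to Fam83d. Fam83b, Fam83h and Fam83f differed by -1.23, -1.02 and -0.56, each without overlap and with an exact permutation p of 0.1.

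Genes of the signalling pathways tied to other members held none past the threshold by limma. Of 13 measured genes of EGF receptor, RAF and PI3 kinase signalling, the setting of FAM83A and FAM83B, Erbb3, a receptor of that family, differed by -0.52 (adjusted p = 0.29 by limma) and Pik3r1, a regulatory subunit of PI3 kinase, by 0.23 (adjusted p = 0.297 by limma); 2 were lower and 1 higher at an unadjusted p under 0.05. Of 12 SMAD and BMP genes, the setting of FAM83G, Id1, a BMP target gene, differed by -0.30 (adjusted p = 0.0925 by limma), and it alone was lower at an unadjusted p under 0.05. Of 12 Wnt genes that meet casein kinase 1, the receptor gene Lrp6 differed by 0.17 (adjusted p = 0.28 by limma), and it alone was higher at that unadjusted level. Of 5 measured p53 pathway genes, Mdm4 and Sesn2 differed by 0.18 and -0.18 (adjusted p = 0.302 and 0.326 by limma), 1 each way at that level. The medians of these 4 lists were -0.02, 0.02, 0.03 and -0.05, and the first, second and last changed sign under another centring of the arrays.

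The genes whose pattern over the 6 arrays was most like each fallen member were found by the root mean square difference of log2 values, after each gene was centred on its own mean. For Fam83b these were Lypd2, a surface protein of the Ly6 family, at 0.053, Grhl3, a transcription factor of the epithelial barrier, at 0.062, and the adaptor gene Sh2d4a at 0.088. Lypd2 read 7.56, 7.58 and 7.58 on the Klf5-deleted and 9.12, 8.61 and 9.18 on the control arrays. It shared with Fam83b the tight Klf5-deleted arrays and the low control 2. Fam83h lay at 0.11 from Fam83b, the closest pair among the fallen members. Some pairs of members that did not pass lay closer, such as Fam83e and Fam83g at 0.087. The nearest genes of Fam83h were Il17re, a receptor of interleukin 17C, at 0.097, Bcl2l14, of the Bcl-2 family, at 0.098 and Mansc1, a membrane protein, at 0.11.

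For Fam83f the nearest were the small GTPase gene Arl14 at 0.021, Syt8, of the synaptotagmin family, at 0.043, and Il1rn, the interleukin 1 receptor antagonist, at 0.044. Arl14 read 5.74, 5.80 and 5.97 on the Klf5-deleted and 6.63, 6.53 and 6.50 on the control arrays, with Klf5-deleted 3 the highest of its group in both genes. Likeness over 6 arrays in 2 genotypes is mostly the size of the difference between them.

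**Figure D5:**
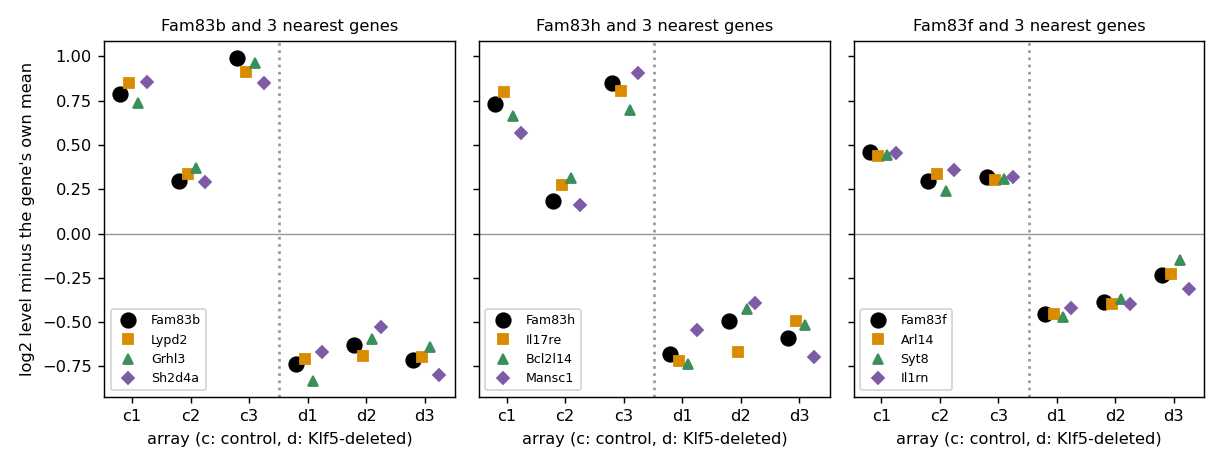
Log2 level of Fam83b, Fam83h and Fam83f (black) and of the 3 genes most like each, minus each gene's own mean over 6 arrays (vertical axis), on control arrays c1 to c3 and Klf5-deleted arrays d1 to d3. Control 2 is the lowest control for Fam83b and Fam83h, at 9.25 and 8.84 before centring, and their neighbours show the same dip; Fam83f shows little of it.

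No fall was detected in the genes next to the Fam83 genes on their chromosomes. This comparison was added after the other values were seen. The measured protein-coding genes that overlap a member or lie nearest on each side in the RefSeq order of GRCm38.p6 numbered 19. None passed by limma, where 1.98% of all genes passed. At an unadjusted p under 0.05, 1 was lower and none higher, where 8.08% of all genes were lower and 6.34% higher. With 19 genes such low counts are near the shares of all genes and are no result about the neighbours. Their differences ran from -0.33 to 0.17, with a median of -0.03. Beside Fam83b, the orexin receptor gene Hcrtr2 differed by 0.03 and Tinag, a basement membrane gene, by 0.09. Both were dim, which limits what they can show. In Klf5-deleted and control samples Hcrtr2 had means of 6.32 and 6.30, and Tinag 5.23 and 5.14. Beside Fam83h, the kinase gene Mapk15 and the polarity gene Scrib differed by -0.06 each, and the overlapping gene Iqank1 by 0.02. Beside Fam83f, Grap2 and Tnrc6b differed by 0.09 and 0.03. Whether the arrays keep apart overlapping genes such as Fam83g and Slc5a10, which differed by -0.11, was not tested.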

How the data were processed

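Total RNA of 6 pools of embryonic bladders was hybridised to 1 array each. The authors deposited log2 values, 1 per feature and array, which per the submitters' processing notes came from RMA (background correction, quantile normalization and probe summary). Its version and the genome build were not given in the sources used here. The log2 scale was read off the range of values, 3.24 to 14.6. Without scanner data, no call above background was made.

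Of 35557 features, 21789 had a single gene symbol, 1621 several and 12147 none. The feature with the highest mean stood for a gene, which gave 19938 genes, 19856 of them matched by Entrez identifier to the RefSeq gene table of GRCm38.p6. Klf5-deleted and control samples were compared by lmFit and eBayes of limma 3.58.1 under R 4.3.3 (two-sided, Benjamini-Hochberg adjustment over all genes, threshold 0.05). On simulated arrays with 200 changed genes among 19938, this comparison recovered 98.3% of changes of 1 log2 unit and 65.4% of changes of 0.5, and 5.81% of calls were unchanged genes. The simulated noise was independent between genes and of equal spread in both genotypes. Fam83b and Fam83h varied more among controls (SD 0.36 and 0.35) than among Klf5-deleted samples (SD 0.06 and 0.09). The recovered shares may thus be too high for such genes. Precision is limited by the number of arrays. Distances of members from list means were compared by exact permutation of the arrays.

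The Fam83 genes and all gene lists were chosen with earlier results of these data known. Named genes were the 8 members, Klf5, the 3 genes most like each fallen member, up to 4 genes per list (those past the threshold first, then by size of difference) and Csnk1a1, Csnk1d, Csnk1e, Krt8, Krt18, Hmmr, Cdh1 and Epcam. Neighbouring genes, Csnk1g and keratin genes outside this rule were added after their values were seen. Alternatives covered the prior variance, array weights, normalization, centring, gene summary, a filter on dim genes, the replicate number as a block and leaving out each array. Marker lists without a result above held no gene past the threshold by limma (mesenchyme, endothelium, leukocytes, nerve and glia, intestine and nephric duct, red cells), with median differences of -0.02, -0.13, -0.17, -0.08, -0.04 and 0.25. At an unadjusted p under 0.05 these lists held 0, 4, 0, 2, 1 and 0 lower and 1, 0, 0, 0, 0 and 0 higher genes. In the urothelial list 6 of 8 genes fell, led by Upk2, which fell by 3.19; of 6 mesothelial genes Krt19 and Msln fell and Wt1 rose by 0.54, the last a call that held without control 2 and was lost without any other array, with 3 lower and 2 higher at an unadjusted p under 0.05; of 10 epidermal genes Sprr1a differed by -4.45 and Ivl by -2.13, and both fell, with 4 lower and none higher at that unadjusted level. None of 10 housekeeping genes passed, with 2 lower and none higher at an unadjusted p under 0.05.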

Additional observations from a re-analysis of the deposited data

How the results depend on the processing

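Fam83b, Fam83f and Fam83h kept their direction under all alternatives run, with differences of -1.58 to -1.24, -0.78 to -0.67 and -1.38 to -1.04. The 3 members fell in every setting that kept all 6 arrays and 19938 or more genes, other than the replicate block; the filter on dim genes left out Fam83f by construction and kept 2 falls. Leaving out 1 array in turn gave 1 to 3 falls in the family and 141 to 349 calls among all genes, of 3 and 395. Fam83a changed sign when arrays were centred on housekeeping genes (0.0191), and leaving out 1 array moved it from -0.123 without control 1 to 0.0208 without control 2 (0.00719 without control 3); for Fam83c the same range was -0.208 without Klf5-deleted 3 to 0.00695 without Klf5-deleted 2, and none of these passed. The titles number replicates 1 to 3 in both groups, but deviations of same-numbered samples from their group means correlated across genes at 0.009, 0.031 and 0.079, so the numbers were not taken as pairs. With the replicate block 110 genes were called and 0 Fam83 genes fell, with adjusted p by limma of 0.0535 for Fam83b, 0.0614 for Fam83f and 0.0794 for Fam83h; this fit has fewer residual degrees of freedom. Among all genes the rises numbered 47 with arrays centred on their medians and 143 when every feature was tested, against 77. Signal over background limits what the dim members Fam83a, Fam83c, Fam83e, Fam83f and Fam83g can show.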
